A study of Mus musculus with 4 samples.

Results

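The integrin and laminin genes of the mouse were followed across 4 RNA-seq libraries of C3H10T1/2 cells, an established line that the labels call mesenchymal stem cells. The members were all protein-coding genes whose GENCODE M21 symbol is Itga, Itgb, Lama, Lamb or Lamc followed by a subunit number or letter, a rule that reads symbols only. The rule found 37 of the 54532 genes counted, of which 18 encode integrin alpha chains, 8 integrin beta chains and 11 laminin chains (5 alpha, 3 beta and 3 gamma). The PRDX1MT library came from cells with a CRISPR edit at the splice acceptor of Prdx1 intron 5, and its genotype is also labelled PRDX1-KO. A clone number is listed for this library, and no other clone with this edit was sequenced here. Whether a difference seen in PRDX1MT came with the edit or with the clone was therefore not tested. The DKO libraries came from clone 1 and clone 5 of a line labelled as a double knockout of DNMT3A and DNMT3B, which methylate DNA de novo. The WT library came from the unedited line. A single serum-containing medium is described for the line and no treatment is listed. Whether Prdx1 is edited in the DKO cells is not stated. PRDX1MT and WT were 1 library each, and the 2 DKO clones were the only replicates. The only replicate spread behind the p-values printed here is thus that between those 2 clones. In bulk RNA, fewer cells expressing a gene and less of its RNA per cell cannot be told apart.

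Integrins are adhesion receptors made of an alpha and a beta chain that span the membrane, bind extracellular matrix or other cells outside, and link through adaptor proteins to actin or keratin filaments inside. Laminins are secreted heterotrimers of an alpha, a beta and a gamma chain that polymerise into the basement membrane and are bound by integrins and dystroglycan. Fibroblast-like cells are known for fibronectin, vitronectin and collagen receptors, whereas the integrin of alpha 6 and beta 4 chains and laminins with Lama3 and Lamb3 chains anchor epithelia at hemidesmosomes.

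Because the enzymes named in the DKO label set new methylation at CG dinucleotides, the letters upstream of the annotated start are shown for 6 of the members on which the comparisons turn and that have a window in the RefSeq promoter table (GRCm38.p6). Each window is the 250 bases before the RefSeq start, on the gene's strand from 5′ to 3′, with every CG in capitals. Methylation was not measured in these libraries. The windows lie at chr11:95076715-95076964 (minus strand, Itga3), chr9:62677605-62677854 (plus strand, Itga11), chr12:119238277-119238526 (minus strand, Itgb8), chr10:27616943-27617192 (minus strand, Lama2), chr2:180225860-180226109 (minus strand, Lama5) and chr1:193301744-193301993 (plus strand, Lamb3).
Itga3: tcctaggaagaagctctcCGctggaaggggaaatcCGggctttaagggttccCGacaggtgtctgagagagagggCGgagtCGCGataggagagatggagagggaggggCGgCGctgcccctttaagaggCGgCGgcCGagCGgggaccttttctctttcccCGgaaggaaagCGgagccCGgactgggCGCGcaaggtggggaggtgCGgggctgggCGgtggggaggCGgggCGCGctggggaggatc
Itga11: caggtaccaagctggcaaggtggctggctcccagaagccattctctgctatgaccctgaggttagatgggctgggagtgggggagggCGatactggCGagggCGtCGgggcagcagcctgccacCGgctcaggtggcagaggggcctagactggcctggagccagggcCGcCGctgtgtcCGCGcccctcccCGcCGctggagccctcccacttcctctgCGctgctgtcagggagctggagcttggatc
Itgb8: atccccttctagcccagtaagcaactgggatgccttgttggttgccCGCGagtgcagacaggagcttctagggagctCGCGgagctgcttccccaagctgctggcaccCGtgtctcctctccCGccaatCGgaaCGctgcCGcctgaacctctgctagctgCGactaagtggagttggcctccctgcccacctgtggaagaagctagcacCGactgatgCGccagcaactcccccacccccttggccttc
Lama2: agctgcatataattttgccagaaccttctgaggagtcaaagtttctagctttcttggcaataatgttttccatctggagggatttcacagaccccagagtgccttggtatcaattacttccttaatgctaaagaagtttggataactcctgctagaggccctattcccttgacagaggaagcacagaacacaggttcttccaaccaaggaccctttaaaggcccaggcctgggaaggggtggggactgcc
Lama5: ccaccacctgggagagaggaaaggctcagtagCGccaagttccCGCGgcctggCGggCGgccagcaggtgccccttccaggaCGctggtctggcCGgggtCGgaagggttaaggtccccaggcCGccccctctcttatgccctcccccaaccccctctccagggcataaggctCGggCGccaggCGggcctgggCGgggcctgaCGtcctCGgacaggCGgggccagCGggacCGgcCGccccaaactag
Lamb3: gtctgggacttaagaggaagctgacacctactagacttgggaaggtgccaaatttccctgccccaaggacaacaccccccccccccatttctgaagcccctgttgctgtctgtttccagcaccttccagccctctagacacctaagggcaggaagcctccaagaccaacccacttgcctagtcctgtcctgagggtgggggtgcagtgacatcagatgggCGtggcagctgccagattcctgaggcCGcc
The Itga3 window held 22 CG dinucleotides and the Lama5 window 19, against 12 each for Itga11 and Itgb8, 2 for Lamb3 and 0 for Lama2. The RefSeq start used for Lamb3 lies 94295 bases inside the GENCODE gene, that for Lama2 2816 bases and that for Itgb8 526 bases, so these windows do not cover the 5′ ends of the GENCODE genes.

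The libraries held between 27570136 and 37685798 counted reads, and the members took 0.347% of them in PRDX1MT, 0.418% and 0.372% in DKO clones 1 and 5, and 0.323% in WT. Levels are given as CPM (a gene's counts scaled to library size) after correction by edgeR's trimmed mean of M-values (TMM), and 3 counts corresponded to 0.0729 to 0.121 CPM. Prdx1 itself was at 31.1 CPM in PRDX1MT, 392 and 332 CPM in DKO clones 1 and 5, and 399 CPM in WT. Dnmt3a was at 80.8 CPM in PRDX1MT, 31.3 and 25.9 CPM in the DKO clones, and 43.7 CPM in WT. Dnmt3b was at 3.74 CPM in PRDX1MT, 2.83 and 2.03 CPM in the DKO clones, and 3.28 CPM in WT, and edgeR called neither gene in DKO against WT. RNA of both targeted genes was thus present in the clones labelled knockout, and gene counts do not show whether it was edited. All 10 mesenchymal stromal markers had reads in the libraries, with summed levels of 21870 to 40090 CPM, although Thy1 had 22 reads in PRDX1MT, 27 and 38 in DKO clones 1 and 5, and 1192 in WT (edgeR adjusted p 0.0321 for DKO against WT). Summed markers of other cell types stayed at 3.18 to 9.70 CPM for leukocytes, 0.925 to 2.17 CPM for epithelium, 5.90 to 16.8 CPM for endothelium, 2.43 to 6.23 CPM for platelets and 1.55 to 8.88 CPM for skeletal muscle. Epcam, Cd3e, Adgre1, Tyrobp and Myod1 had 0 reads in every library.

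Of the 37 members, 30 reached 1 CPM in at least 1 library, and 8 exceeded 100 CPM in all 4 libraries: Itga5, Itgav, Itgb1, Itgb5, Lama4, Lamb1, Lamb2 and Lamc1. The 7 that stayed below 1 CPM were Itga4, Itgad, Itgal, Itgam, Itgax, Lama1 and Lamc3, and Itgax had 0 reads throughout. The minimum-count filter of edgeR kept 33 members, leaving out Itgad, Itgam, Itgax and Lamc3.

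**Figure D1:**
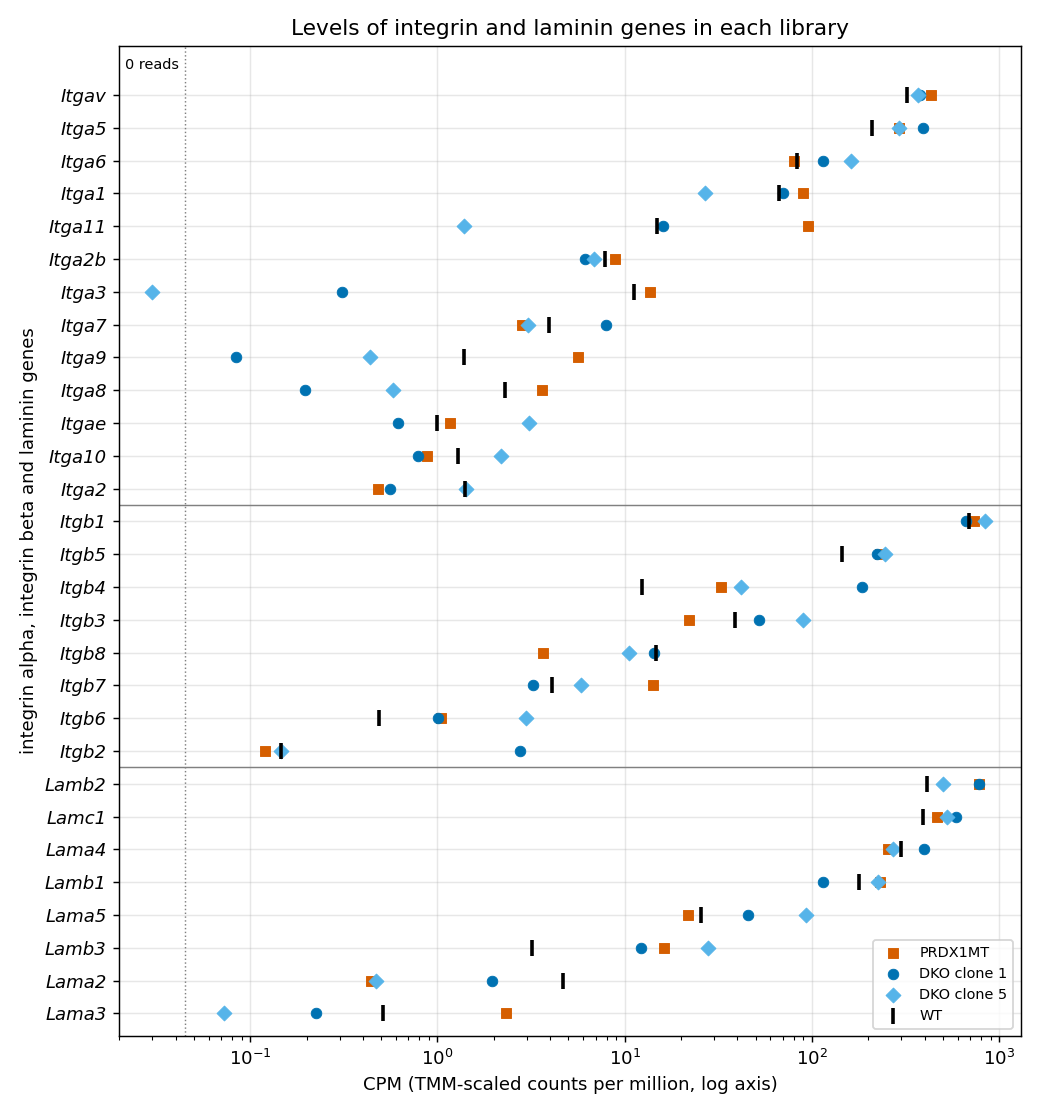
TMM-scaled CPM on a log axis of 29 of the members that reached 1 CPM in at least 1 library, with 1 symbol per library (squares PRDX1MT, circles DKO clone 1, diamonds DKO clone 5, bars WT); a symbol left of the dotted line has 0 reads. Among abundant chains Itgb1 lies at 668 to 837 CPM across libraries and Lamb1 at 115 to 230 CPM, whereas Itga3, Itga9 and Itga8 lie far to the left in both DKO clones.

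Against WT, the DKO clones had less RNA of the laminin receptor chain Itga3 and more of Itgb4 and Lamb3, but no member passed edgeR's quasi-likelihood test. With Benjamini-Hochberg adjustment over 19446 genes, 0 of 33 members had an adjusted p under 0.05, and the test called 0.468% of all genes. At an unadjusted p under 0.05 there were 8 members of 33 (24.2%), against 5.08% of all genes. Lamb3, Itgb4, Lama5 and Itgal were on the higher side, and Itga3, Lama1, Itga8 and Itga9 on the lower. DESeq2 called 2 members higher in DKO, Itgb4 (adjusted p 0.00521) and Lamb3 (adjusted p 0.0211), among 1.46% of all genes. The median log2 ratio over the 33 members was 0.21, against 0.03 over all genes tested.

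For single libraries without replicates, a difference was counted where the CPM ratio was at least 2-fold, the libraries together held at least 100 reads and the 95% exact binomial interval excluded equality, which describes those libraries and gives no p-value. In PRDX1MT against WT this size rule held for 7 of the 24 members with enough reads (29.2%), against a background of 14.8% of all genes. Of these, 5 were higher (background 7.26%), namely Itga11, Lamb3, Itga9, Itgb7 and Itgb4, and 2 lower (background 7.57%), namely Lama2 and Itgb8. In DKO clone 1 against WT it held for 8 of 24 members (33.3%, background 16.0%), with 5 higher (background 8.40%) and 3 lower (background 7.56%). In DKO clone 5 against WT it held for 11 of 26 (42.3%, background 14.3%), with 6 higher (background 5.69%) and 5 lower (background 8.58%). Both clones were past it on the higher side for 2 of 23 members (8.70%), against 1.65% of genes. These 2, Itgb4 and Lamb3, were also past it in PRDX1MT, and so in all 3 edited libraries, against 0.949% of genes. Lama2 was past it on the lower side in all 3, against 2.13% of genes, and Itga3 and Itga8 joined it in both DKO clones, making 3 of 23 members (13.0%) against 3.85% of genes. The PRDX1MT and DKO comparisons share the single WT library, so any error in that library enters all of them.

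**Figure D2:**
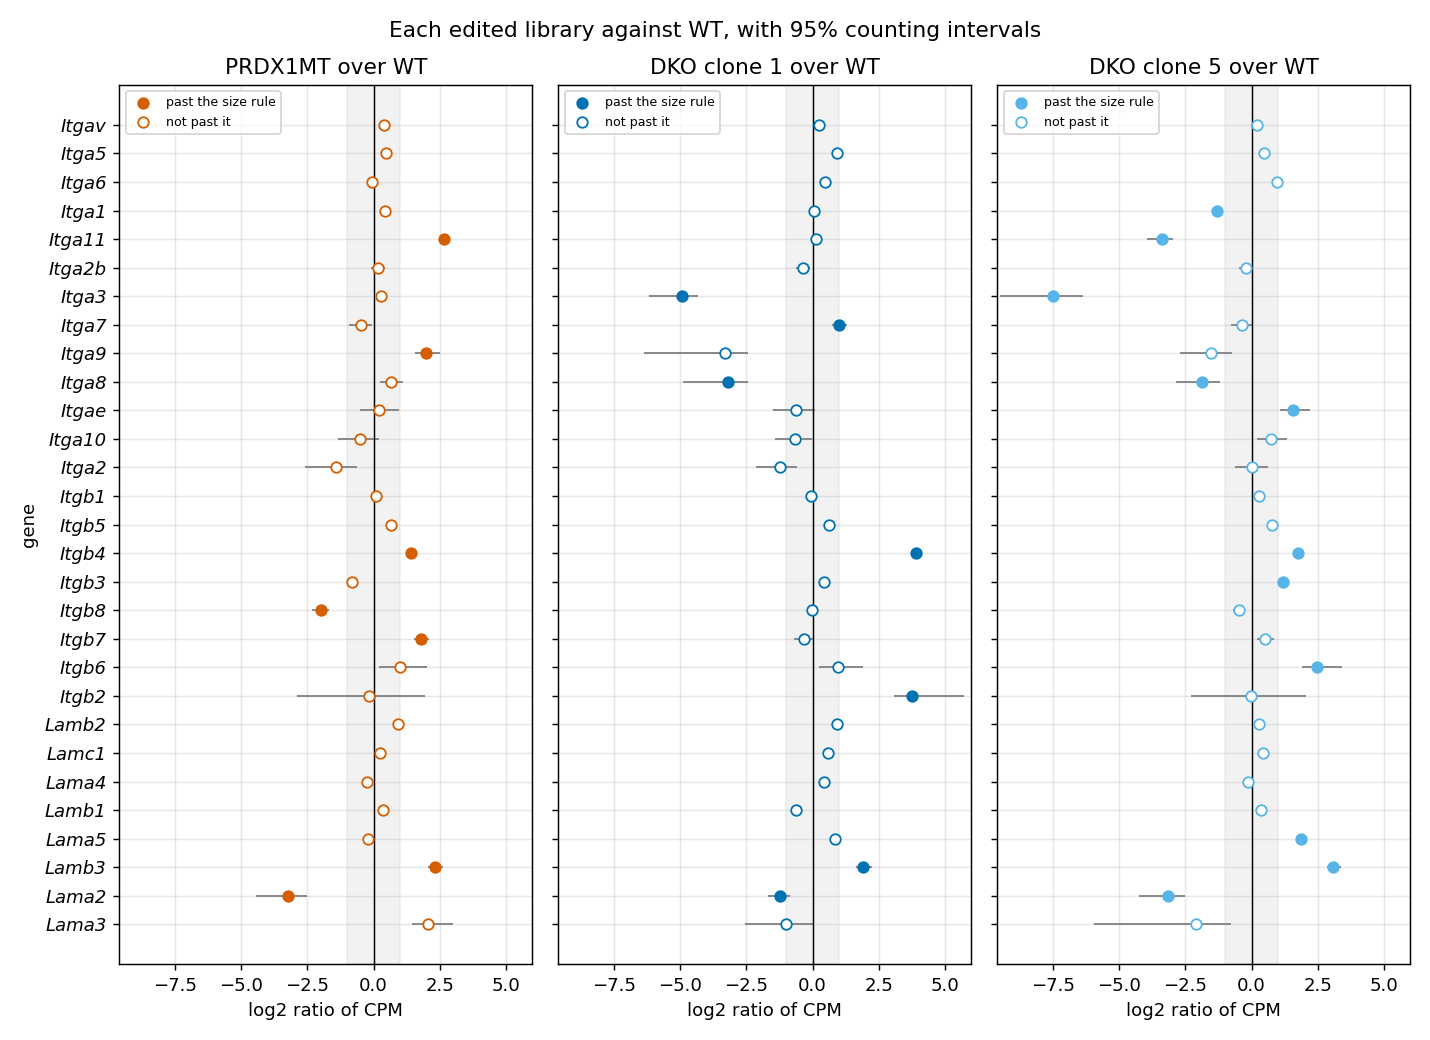
Log2 ratio of CPM of each edited library over WT for the same 29 members, with 95% counting intervals as lines, filled circles past the size rule, and a grey band for ratios under 2-fold; the interval of Itga3 in DKO clone 5, which has 0 reads, runs past the axis. Itgb4 and Lamb3 are filled on the right in all 3 panels and Lama2 on the left, whereas Itga11 is on the right in PRDX1MT (2.67) and on the left in DKO clone 5 (-3.37).

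Among laminin receptors, Itga3 (chr11:95044474-95076801 in mm10, minus strand, ENSMUSG00000001507), which pairs with Itgb1, showed the largest DKO difference. Its level was 13.6 CPM in PRDX1MT, 0.308 and 0 CPM in DKO clones 1 and 5, and 11.2 CPM in WT. The underlying counts were 339 reads in PRDX1MT, 11 and 0 in the DKO clones and 460 in WT, so both clones lay far below both other libraries. Over the pooled clones the level was 64.2-fold lower than in WT (95% counting interval 35.6 to 130). For clone 5 alone, a floor of 3 counts in place of 0 gave a level 103-fold lower. That value leaves out the counting error of WT, and the exact interval of the log2 ratio reached up to -6.38. edgeR's log2 ratio was -6.06 (SE 1.14, adjusted p 0.108) for DKO against WT and -6.34 (SE 1.15, adjusted p 0.123) against PRDX1MT, the smallest edgeR adjusted p of the members in both comparisons. DESeq2 gave Itga3 an adjusted p of 1.0 in both.

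Itga6, the other widespread laminin receptor alpha chain and the partner of Itgb4, was at 80.5 CPM in PRDX1MT, 114 and 161 CPM in DKO clones 1 and 5, and 82.8 CPM in WT. Both clones were above the other libraries, by a log2 ratio of 0.73 (SE 0.49) in DKO against WT. Itga7, the laminin receptor of muscle, was at 2.81 CPM in PRDX1MT, 7.93 and 3.05 CPM in the DKO clones and 3.93 CPM in WT. Only clone 1 stood apart there, 2.02-fold above WT, and it lost the size rule under scaling by total counts.

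Itgb4 (chr11:115974709-116008412, plus strand, ENSMUSG00000020758), the hemidesmosome chain that pairs only with alpha 6, was at 32.9 CPM in PRDX1MT, 186 and 42.0 CPM in DKO clones 1 and 5, and 12.3 CPM in WT. All 3 edited libraries exceeded WT, and clone 1 exceeded clone 5 by 4.43-fold. Relative to WT the ratios were 2.66-fold in PRDX1MT, 15.1-fold in clone 1 and 3.41-fold in clone 5. The DKO mean was 114 ± 102 CPM (SD, n = 2), and edgeR gave a log2 ratio of 3.21 against WT (SE 0.93, adjusted p 0.457) and 1.80 against PRDX1MT (SE 0.86, adjusted p 1.0). Of the exon bases of Itgb4, 7.66% overlap B230344G16Rik on the opposite strand, and since strand use in counting is not given in the sources used here, reads there may be shared. Epithelial markers summed to 2.17 CPM in PRDX1MT, 0.925 and 2.14 CPM in the DKO clones and 1.89 CPM in WT. Only 2 of these 7 markers had enough reads for edgeR, and the part of epithelial cells in the Itgb4 level was not tested.

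The fibronectin receptor chains Itga5 and Itgb1 were abundant in every library. Itga5 was at 292 CPM in PRDX1MT, 392 and 291 CPM in DKO clones 1 and 5, and 209 CPM in WT. Itgb1, the common partner of many alpha chains, was at 731 CPM in PRDX1MT, 668 and 837 CPM in the DKO clones and 692 CPM in WT. Itga5 was above WT in all 3 edited libraries but by less than 2-fold, and for Itgb1 the clones lay on both sides of WT (log2 ratio 0.12, SE 0.54). Itgav, the alpha chain of vitronectin and latent TGF-beta receptors, was at 430 CPM in PRDX1MT, 378 and 371 CPM in the DKO clones and 324 CPM in WT.

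Itgav also pairs with Itgb3, Itgb5, Itgb6 and Itgb8. Itgb5, a vitronectin receptor chain, was at 232 CPM in PRDX1MT, 223 and 246 CPM in DKO clones 1 and 5, and 145 CPM in WT. Itgb3, which can form a vitronectin receptor with Itgav and the fibrinogen receptor of platelets with Itga2b, was at 22.1 CPM in PRDX1MT, 52.2 and 89.1 CPM in the DKO clones, and 38.8 CPM in WT. PRDX1MT was the lowest library and both clones were above WT, but only clone 5 passed the size rule (2.30-fold). edgeR put the log2 ratio of Itgb3 at 0.87 for DKO against WT (SE 0.52, adjusted p 1.0) and 1.67 against PRDX1MT (SE 0.54, adjusted p 0.734). Itga2b was at 8.88 CPM in PRDX1MT, 6.11 and 6.86 CPM in DKO clones 1 and 5, and 7.87 CPM in WT. Which chains paired was not measured.

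Itgb8, whose pairing with Itgav activates latent TGF-beta, was at 3.66 CPM in PRDX1MT, 14.3 and 10.5 CPM in DKO clones 1 and 5, and 14.7 CPM in WT. The PRDX1MT library was 4.03-fold below WT, and both clones lay within 2-fold of WT. For DKO against PRDX1MT, edgeR gave a log2 ratio of 1.76 (SE 0.60, adjusted p 0.809). Itgb6, an epithelial activator of TGF-beta, stayed low, at 1.04 CPM in PRDX1MT, 1.01 and 2.98 CPM in the DKO clones and 0.486 CPM in WT, with clone 5 6.13-fold above WT.

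Itga8 and Itga9 shared the low DKO levels of Itga3 at much smaller counts. Itga8, the receptor chain for nephronectin, had 90 reads (3.62 CPM) in PRDX1MT, 7 and 16 reads (0.196 and 0.581 CPM) in DKO clones 1 and 5, and 94 reads (2.28 CPM) in WT. Itga9, which binds tenascin-C and VCAM-1, had 141 reads (5.66 CPM) in PRDX1MT, 3 and 12 reads (0.0841 and 0.436 CPM) in the clones, and 57 reads (1.38 CPM) in WT. In both genes PRDX1MT was the highest library and the clones the lowest. The pooled clones were 6.28-fold lower than WT for Itga8 (counting interval 3.94 to 10.4) and 5.84-fold lower for Itga9 (3.26 to 11.1). Against PRDX1MT, edgeR's log2 ratio was -3.23 for Itga8 (SE 0.87, adjusted p 0.464) and -4.47 for Itga9 (SE 0.97, adjusted p 0.241), while DESeq2 called Itga9 (adjusted p 0.0175).

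Of the collagen receptor alpha chains, Itga11 (chr9:62677826-62783982, plus strand, ENSMUSG00000032243), a fibrillar collagen receptor of fibroblasts, varied most. It was at 94.9 CPM in PRDX1MT, 16.0 and 1.38 CPM in DKO clones 1 and 5, and 14.8 CPM in WT. PRDX1MT was 6.41-fold above WT (log2 2.67, counting interval 2.55 to 2.81), clone 1 was close to WT, and clone 5 was 10.7-fold below it. The clones differed from each other by 11.6-fold, so the DKO mean of 8.70 ± 10.4 CPM (SD, n = 2) describes neither. edgeR gave a log2 ratio of -3.44 for DKO against PRDX1MT (SE 1.06, adjusted p 0.668), and DESeq2 called it (adjusted p 0.0379). Itga1, a collagen IV receptor chain, was at 89.7 CPM in PRDX1MT, 70.2 and 26.9 CPM in the DKO clones and 66.9 CPM in WT. Clone 5 was again the lowest, 2.49-fold below WT. Itga2 and Itga10 stayed at 0.482 to 1.42 CPM and 0.785 to 2.18 CPM, and 33.5% of the Itga10 exon bases are shared with Gm42957 on the same strand.

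Of the leukocyte integrin chains, Itga4, Itgad, Itgal, Itgam and Itgax stayed below 1 CPM in every library. However, 68.7% of the Itgam exon bases are shared with Gm49368 on the same strand, and 19.7% of those of Itgad with other genes. How such reads were assigned is not given, so the counts of Itgam and Itgad may be too low. Itgb7, which pairs with Itga4 or Itgae on lymphocytes, was at 14.2 CPM in PRDX1MT, 3.22 and 5.88 CPM in DKO clones 1 and 5, and 4.08 CPM in WT, which put PRDX1MT 3.49-fold above WT. Its partner Itga4 had 0 reads in PRDX1MT, 16 and 24 in the DKO clones and 21 in WT. The 3-count floor puts PRDX1MT 4.23-fold below WT, and the exact interval of the log2 ratio reached up to -1.65. Itgb2, the beta chain of leukocyte integrins, had 3 reads in PRDX1MT, 99 and 4 in DKO clones 1 and 5, and 6 in WT. Clone 1 was thus 19.0-fold above WT, and its alpha partner Itgal also had its highest count there, with 1 read in PRDX1MT, 31 and 6 in the clones and 1 in WT. Of the 8 leukocyte markers, 3 had 0 reads in every library. Past the size rule in clone 1 against WT were 2, both higher, where the background was 8.40%. That background covers only genes with enough reads, so it is not on the same base as the 8 markers. In PRDX1MT 1 was past the rule, also higher (background 7.26%), and in clone 5 0 were (background 14.3% in either direction). Lyz2 was highest in clone 1, with 51 reads in PRDX1MT, 133 and 1 in the clones and 10 in WT. Ptprc had 4 reads in PRDX1MT and 0 in each of the other libraries. The part of other cells in these counts was not tested.

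Among laminin alpha chains, Lama4, a chain of vascular and mesenchymal basement membranes, was the most abundant at 254 CPM in PRDX1MT, 399 and 271 CPM in DKO clones 1 and 5, and 298 CPM in WT. Lama5 (chr2:180176373-180225859, minus strand, ENSMUSG00000015647), the broad adult alpha chain, was at 21.9 CPM in PRDX1MT, 45.7 and 93.2 CPM in the DKO clones, and 25.6 CPM in WT. Both clones exceeded both other libraries, clone 5 by 3.63-fold over WT and clone 1 by less than the 2-fold the rule asks. The DKO mean was 69.4 ± 33.6 CPM (SD, n = 2), with an edgeR log2 ratio of 1.44 against WT (SE 0.58, adjusted p 0.903) and 1.66 against PRDX1MT (SE 0.59, adjusted p 0.847).

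Lama2 (chr10:26980036-27619758, minus strand, ENSMUSG00000019899), the alpha chain of muscle and nerve basement membranes, was at 0.442 CPM in PRDX1MT, 1.96 and 0.472 CPM in DKO clones 1 and 5, and 4.66 CPM in WT. The counts were 11, 70, 13 and 192 reads in the same order of libraries, so WT was the highest. PRDX1MT was 10.6-fold, clone 1 2.38-fold and clone 5 9.88-fold below WT. For Lama2, edgeR gave a log2 ratio of -1.92 in DKO against WT (SE 0.91, adjusted p 1.0). Lama3, the epithelial alpha chain, had 58 reads in PRDX1MT, 8 and 2 in the clones and 21 in WT, and Lama1, an early embryonic chain, had 14 in PRDX1MT, 1 and 0 in the clones and 25 in WT. For Lama1 the pooled DKO level, from 1 read, was 38.4-fold lower than WT with a counting interval of 6.28 to 1576.

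Lamb3 (chr1:193207699-193343878, plus strand, ENSMUSG00000026639), the beta chain of the epithelial laminin, was at 16.2 CPM in PRDX1MT, 12.3 and 27.8 CPM in DKO clones 1 and 5, and 3.21 CPM in WT. All 3 edited libraries exceeded WT, by 5.06-fold in PRDX1MT, 3.82-fold in clone 1 and 8.66-fold in clone 5. The pooled clones were 5.93-fold above WT (counting interval 4.95 to 7.15), and edgeR gave a log2 ratio of 2.64 (SE 0.71, adjusted p 0.359), against 0.30 (SE 0.63, adjusted p 1.0) for DKO over PRDX1MT. Its partner Lama3 had fewer reads in both clones than in WT, as given above.

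The main beta and gamma chains were high everywhere. Lamb2 was at 777 CPM in PRDX1MT, 777 and 500.3 CPM in DKO clones 1 and 5, and 414 CPM in WT. Lamb1, the beta chain that Lamb2 replaces in mature basement membranes, was at 230.2 CPM in PRDX1MT, 115 and 227 CPM in the clones and 178 CPM in WT, with clone 1 the lowest. Lamc1, the gamma chain of most laminins, was at 467 CPM in PRDX1MT, 588 and 526 CPM in the clones and 394 CPM in WT. None of these 3 chains differed from WT by 2-fold in any library.

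To compare genes with each other, CPM was divided by exon length in kilobases (RPKM), and each gene was expressed as a share of its chain family's summed RPKM. Itga5 led the alpha chains with 43.0% in PRDX1MT, 58.0% and 50.7% in DKO clones 1 and 5, and 45.4% in WT. Itga11 took 13.4% of alpha-chain RPKM in PRDX1MT, 2.28% and 0.231% in the clones and 3.10% in WT. Itgb1 took 69.3% of beta-chain RPKM in PRDX1MT, 61.7% and 68.6% in the clones and 76.5% in WT, the highest share of the 4 libraries. Itgb4 took 10.0% of beta-chain RPKM in DKO clone 1, against 1.81% in PRDX1MT, 2.01% in clone 5 and 0.793% in WT.

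Among laminins, clone 5 had a different mix of alpha chains. Lama4 held 90.4% of alpha-chain RPKM in PRDX1MT, 88.8% and 73.2% in DKO clones 1 and 5, and 90.3% in WT, while Lama5 held 8.26% in PRDX1MT, 10.8% and 26.7% in the clones and 8.24% in WT. Clone 1 had the lowest share of Lamb1 in beta-chain RPKM, at 8.19%, against 20.9% in clone 5, 15.1% in PRDX1MT and 20.8% in WT.

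**Figure D3:**
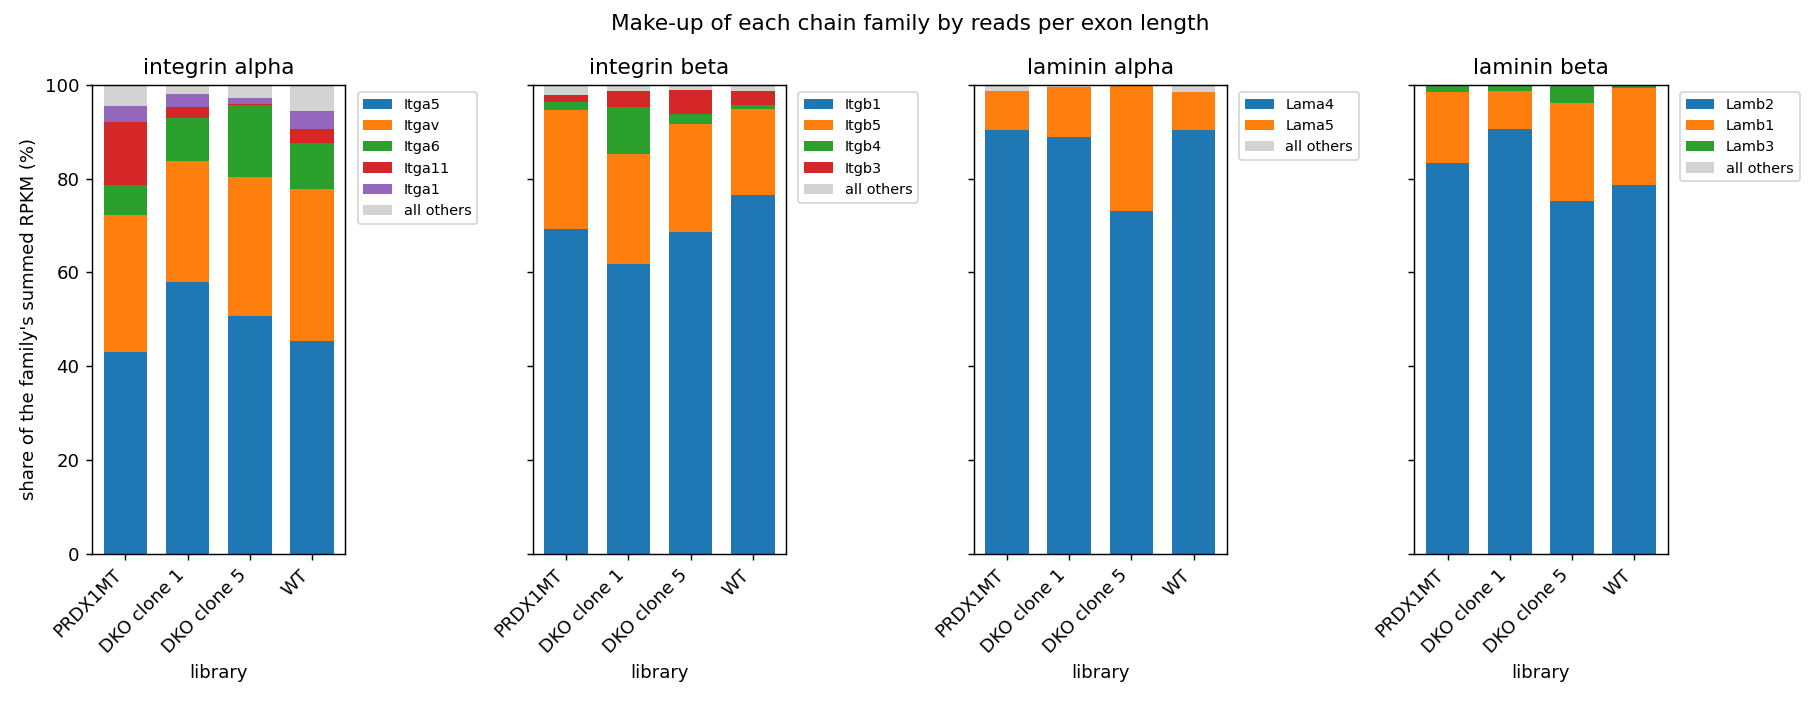
Share in percent of the summed RPKM of the integrin alpha, integrin beta, laminin alpha and laminin beta chains taken by the leading genes in each library, 1 bar per library and without error bars. Itga11 is wide in the PRDX1MT bar (13.4%), Itgb4 in the DKO clone 1 bar (10.0%) and Lama5 in the DKO clone 5 bar (26.7%).

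Between the DKO clones and PRDX1MT, edgeR's quasi-likelihood test with Benjamini-Hochberg adjustment called 0 of 33 members, against 0.206% of all genes. Unadjusted, 11 members (33.3%) had p under 0.05, against 4.69% of genes. Itga4, Itgb3, Itgb8 and Lama5 were on the higher side, and Itga3, Itga8, Itga9, Itga11, Itgb7, Lama1 and Lama3 on the lower. DESeq2 called 2 members, Itga9 and Itga11, both lower in DKO, among 1.17% of genes. By the size rule, clone 1 differed from PRDX1MT in 11 of 23 members (47.8%, background 15.0%), 6 higher (background 8.14%) and 5 lower (background 6.85%). Clone 5 differed from PRDX1MT in 12 of 25 (48.0%, background 13.8%), 6 higher (background 5.83%) and 6 lower (background 8.01%). Itgb3, Itgb8 and Lama5 were higher and Itga3, Itga9, Itga11 and Itgb7 lower in both clones. The share of all genes past the rule in both clones against PRDX1MT was not counted, so these members are not shown to exceed a background. These comparisons share the DKO libraries with those against WT.

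**Figure D4:**
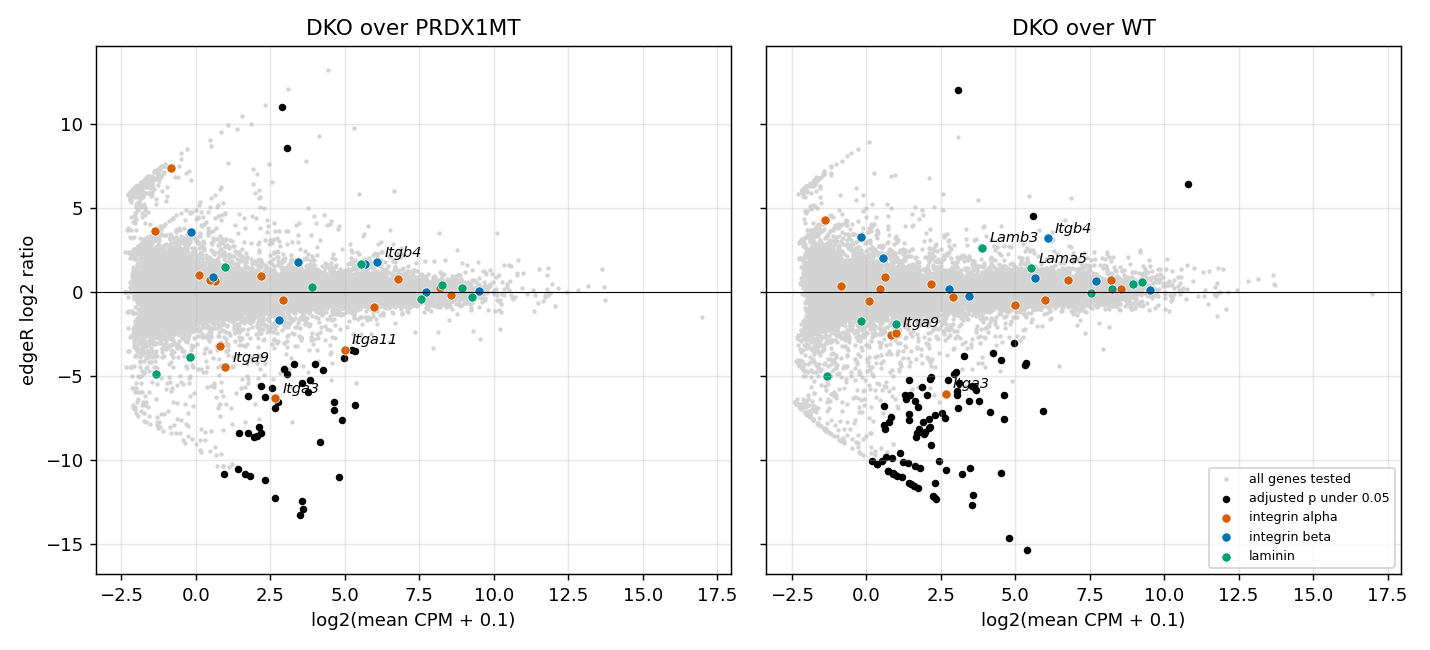
edgeR log2 ratio against log2 of mean CPM plus 0.1 for all 19446 genes tested (grey), with genes of adjusted p under 0.05 in black and the integrin and laminin genes coloured by family, for DKO over PRDX1MT (left) and DKO over WT (right). No coloured point is called, and Itga3 is the lowest of them in both panels (-6.34 and -6.06).

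The DKO clones also differed from each other. Clone 5 against clone 1 was past the size rule in 9 of 23 members (39.1%), against a background of 18.4%. The 4 higher in clone 5 (background 7.63%) were Itgae (5.00-fold), Itgb6 (2.95-fold), Lamb3 (2.27-fold) and Lama5 (2.04-fold), the last not past the rule under total counts. The 5 lower in it (background 10.7%) were Itgb2 (19.1-fold), Itga11 (11.6-fold), Itgb4 (4.43-fold), Itga1 (2.61-fold) and Itga7. Itgae, the alpha chain that binds E-cadherin on lymphocytes, had 29 reads in PRDX1MT, 22 and 85 in clones 1 and 5, and 41 in WT.

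The partners of these receptors and chains were read from lists of genes known to act with them. Of 31 focal adhesion adaptors 30 were tested and 0 passed edgeR in either direction. In DKO against WT, 4 were at an unadjusted p under 0.05 and DESeq2 called 1. Over all genes these shares were 0.468% by edgeR, 5.08% unadjusted and 1.46% by DESeq2. The list's median log2 ratio was 0.17, against 0.03 for all genes. Lims2, which binds integrin-linked kinase, was at 12.0 CPM in PRDX1MT, 6.70 and 8.35 CPM in DKO clones 1 and 5, and 1.29 CPM in WT, and for DKO against WT the adjusted p was 0.340 by edgeR and 0.0392 by DESeq2, whose 1 call in this list it was. Tns1, an actin-binding tensin of fibrillar adhesions, was at 187 CPM in PRDX1MT, 221 and 214 CPM in the clones and 69.9 CPM in WT. Both genes were above WT in all 3 edited libraries. Kank1, which links talin to the cell cortex, was the opposite, with 7.43 CPM in PRDX1MT, 62.7 and 53.5 CPM in the clones and 172 CPM in WT.

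Of the 18 focal adhesion kinases and signalling genes all were tested and 0 passed edgeR (1 at an unadjusted p under 0.05 and 0 by DESeq2 in DKO against WT, median log2 ratio 0.06). The all-gene shares were 0.468% by edgeR, 5.08% unadjusted and 1.46% by DESeq2. Ptk2b, the relative of focal adhesion kinase, was at 10.5 CPM in PRDX1MT, 0.336 and 0.218 CPM in DKO clones 1 and 5, and 1.89 CPM in WT. PRDX1MT was the highest and both clones the lowest, the order seen for Itga8 and Itga9, and the edgeR adjusted p was 0.053 for DKO against PRDX1MT and 0.310 against WT.

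Of 17 basement membrane partners all were tested and 0 passed edgeR (1 unadjusted and 0 by DESeq2, median 0.42). Again the all-gene shares in DKO against WT were 0.468% by edgeR, 5.08% unadjusted and 1.46% by DESeq2. The collagen IV chains Col4a1 and Col4a2, which form the network next to laminin, were above WT in all 3 edited libraries. Col4a1 was at 1534 CPM in PRDX1MT, 1613 and 1205 CPM in DKO clones 1 and 5, and 599 CPM in WT, and Col4a2 at 1150 CPM in PRDX1MT, 810 and 707 CPM in the clones and 413 CPM in WT. Fbln1, a fibulin of basement membranes, had 16 reads in PRDX1MT, 1 and 0 in the clones and 44 in WT.

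Of 23 other integrin ligands 21 were tested and 0 passed edgeR (2 unadjusted and 1 by DESeq2, median 0.44). Here too the all-gene shares in DKO against WT were 0.468% by edgeR, 5.08% unadjusted and 1.46% by DESeq2. Ccn2, a matricellular ligand, was at 292 CPM in PRDX1MT, 195 and 540 CPM in DKO clones 1 and 5, and 69.3 CPM in WT. For DKO against WT, edgeR gave Ccn2 a log2 ratio of 2.41 (SE 0.75, adjusted p 0.551), and DESeq2 called it (adjusted p 0.0333). Thbs1, thrombospondin 1, was at 2193 CPM in PRDX1MT, 219 and 422 CPM in the clones and 107 CPM in WT. Its level in PRDX1MT was far above the other libraries, though both clones also exceeded WT. For DKO against PRDX1MT edgeR called 0 genes of these 4 lists, against 0.206% of all genes. At an unadjusted p under 0.05 there were 1 of 30 adaptors, 2 of 18 kinase and signalling genes, 2 of 17 basement membrane partners and 5 of 21 ligands, against 4.69% of all genes. DESeq2 called 4 of their genes in that comparison, Kank1 and Spp1 higher and Ptk2b and Thbs1 lower in DKO, against 1.17% of all genes. Spp1, osteopontin, named here after its values were seen, was at 7.67 CPM in PRDX1MT, 112 and 87.9 CPM in DKO clones 1 and 5, and 156 CPM in WT.

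The promoter windows, each from 250 bases before to 50 bases after the RefSeq start, gave the members' CG content, which the choice of members had not used. Of the 37 members 23 had a window. The ratio of observed to expected CG had a median of 0.488 over these, against 0.384 over 32851 windows of all genes, and 8 of the 23 were at 0.6 or above, against 35.8% of all windows. The RefSeq start of Itga9 lies 105002 bases inside its GENCODE gene. The ratio of observed to expected CG ran between 0.053 in Lama2 and 0.882 in Itga8. Itga3 stood at 0.768 and Lama5 at 0.607, Itgb8 at 0.488, Itga11 at 0.465 and Lamb3 at 0.076. The letters GGGCGG, searched on both strands, occurred in 11 of the 23 windows, against 35.7% of all windows, and TATAAA, also on both strands, in 0 of 23, against 13.6%.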

How the data were processed

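RNA was sequenced in 4 libraries (PRDX1MT, DKO clones 1 and 5, and WT). Per the labels' protocols, ribosomal RNA was removed and a strand-keeping total RNA kit was used. The submitters' processing notes name STAR 2.6.1d and mm10. How reads were assigned to genes, with which annotation and whether by strand, is not given in the sources used here. Raw counts per Ensembl gene were deposited.

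Of 54532 identifiers, 54495 were named from GENCODE M21. Counts were fitted with edgeR 4.0.16 (R 4.3.3), with TMM scaling, filterByExpr and quasi-likelihood tests over the 3 groups jointly, leaving 1 residual degree of freedom between the DKO clones. An adjusted p under 0.05 over 19446 genes was called. SEs are the log2 ratio divided by the square root of F. Single libraries were compared by the size rule, a log2 ratio of at least 1 with a prior count of 2. Intervals, 95% exact, and the floor of 3 counts cover counting error only. DESeq2 1.42.0, other scalings, filters and left-out clones were alternatives. RPKM used the GENCODE exon union. Scripts were tested on simulated data. The DKO libraries are separate clones, and no source says that any library was repeated in a separate culture. The replicate spread behind a printed p-value is therefore that between the 2 clones alone. Genes named with values were the members at 1 CPM or more in any library, plus leading genes of each partner list, and Itga4, Itgal and Lama1, named after their values were seen. Members, lists and tests were chosen with earlier results of these data known. The values of 1 member, included in all counts, are not reported here.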

Additional observations from a re-analysis of the deposited data

Results flagged for a closer look

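In 5 members PRDX1MT and both DKO clones lay on opposite sides of WT, with each library's counting interval excluding equality. The share of all genes with this pattern was not counted, so the 5 are not shown to exceed a background. At high counts the interval excludes equality even for small ratios, such as -0.23 for Lama5 in PRDX1MT. The difference itself was tested as DKO against PRDX1MT by edgeR's quasi-likelihood test with Benjamini-Hochberg adjustment over all genes, and it passed for none of them.

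The log2 ratios of Itga3 to WT were 0.28 in PRDX1MT, -4.92 in clone 1 and -7.50 in clone 5, and the DKO against PRDX1MT log2 ratio was -6.34 (adjusted p 0.123). Scaling by total counts, which moves PRDX1MT ratios by -0.28, leaves that of Itga3 close to 0 (0.01) and that of Itga8 at 0.38. Their PRDX1MT intervals began at 0.08 and 0.23, so under that scaling neither interval excludes equality. Itga9 had 1.99 in PRDX1MT, -3.31 in clone 1 and -1.54 in clone 5, with -4.47 for DKO against PRDX1MT (adjusted p 0.241). Itga8 had 0.65 in PRDX1MT, -3.18 in clone 1 and -1.87 in clone 5, with -3.23 for DKO against PRDX1MT (adjusted p 0.464). The other 2 ran the opposite way. Itgb3 had -0.81 in PRDX1MT, 0.43 in clone 1 and 1.20 in clone 5, with 1.67 for DKO against PRDX1MT (adjusted p 0.734). Lama5 had -0.23 in PRDX1MT, 0.83 in clone 1 and 1.86 in clone 5, with 1.66 for DKO against PRDX1MT (adjusted p 0.847).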

How the results depend on the processing

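edgeR's count of 0 members in DKO against WT was also 0 with RLE factors, total counts, a 1 CPM filter or without PRDX1MT. It became 2 with DESeq2 (Itgb4, Lamb3), 3 without a filter (Itgb4 and Lamb3 higher, Itga3 lower) and 1 (Itga3) when PRDX1MT and WT were joined so that either DKO clone could be left out. The count of 0 in DKO against PRDX1MT became 2 with DESeq2 and 5 without a filter (Itga3, Itga8, Itga9, Itga11 and Lama3, all lower), and the same joined fits give 1. In the joined fits the replicate spread is that between PRDX1MT and WT, which differ in genotype, and not that between the clones. The cause of these changes in count was not tested. Over all genes, the 91 calls against WT became 262 with DESeq2, 535 without a filter, and 0 with a 1 CPM filter. The 40 against PRDX1MT became 215 with DESeq2, 404 without a filter, 0 with a 1 CPM filter, 13 with RLE factors, 7 with total counts and 11 without WT. With PRDX1MT and WT joined, DKO differed in 21 genes without clone 1 and 92 without clone 5, which changes the comparison as well as the libraries. By the size rule, PRDX1MT against WT had 11 members at a 20-read minimum and 3 at a log2 ratio of 2, against 7. Clone 1 against WT had 3 at 500 reads and 4 at log2 2, against 8. Clone 5 against WT had 6 and 5, against 11. Clone 5 against clone 1 had 14 at 20 reads, 5 at 500 reads and 4 at log2 2, against 9. The members with enough reads and the share of all genes also change with these thresholds and are not given here. These counts alone therefore do not show a gain or loss relative to all genes. Scaling by total counts moved every log2 ratio to WT by -0.28 in PRDX1MT, -0.10 in clone 1 and -0.14 in clone 5. With 1 clone left out, the log2 ratio changed sign in 11 of 29 members against WT and in 8 of 29 against PRDX1MT. These included Itgae (0.88 against WT, -0.64 without clone 5), Itga11 (-0.76, 0.11 without clone 5) and Itgb2 (3.30, about 0 without clone 1). Among the other settings, 2 ratios near 0 of members reported by name reversed. Itgb1 in DKO against WT became -2.897e-05 under total counts. Against PRDX1MT, Itgb5 became -0.007037 under a 1 CPM filter. No paired analysis was possible because PRDX1MT and WT were 1 library each and share at most 1 replicate number with DKO. Under total counts Itgb3 was also past the size rule in PRDX1MT against WT, on the lower side. Depth limits members with few reads, such as Itga4, Itga8, Itga9, Itgal, Lama1 and Lama3.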

Other observations

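Some members are neighbours in the genome, and neighbours did not always share a level. Itga2 and Itga1 lie 20995 bases apart on chromosome 13, and Itga1 was at 26.9 to 89.7 CPM while Itga2 was at 0.482 to 1.42 CPM. The leukocyte alpha chain genes Itgam, Itgax and Itgad lie together on chromosome 7, with 11055 bases between Itgam and Itgax and 3718 between Itgax and Itgad. None exceeded 2 reads in any library, with the limit of shared exon bases given above for Itgam and Itgad.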
